A study of Mus musculus with 50 samples.

Results

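The transcripts of the heat shock proteins, their J-domain partners, the BAG co-chaperones and the chaperonin TRiC were measured in medium spiny neurons (MSNs) of the mouse nucleus accumbens (NAc). Members were taken by gene symbol, as every symbol that starts with Hspa, Hspb, Hspd, Hspe or Hsp90, Hsph1, every Dnaja, Dnajb and Dnajc gene, the BAG genes and the Cct genes, which gave 87 of the 24552 genes listed. There were 6 cytosolic HSP70s, 2 of the endoplasmic reticulum (ER), 1 of mitochondria and 2 of the HSPA12 type, 3 HSP110s, 2 cytosolic HSP90s and 1 of the ER. The others were 2 members of mitochondrial HSP60/HSP10, 8 with an Hspb symbol, counted as small heat shock proteins, 4 J-domain proteins of type A, 13 of type B and 28 of type C, 6 BAG proteins and 9 chaperonin (CCT) genes.

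HSP70 proteins bind unfolded stretches of other proteins and release them in a cycle driven by ATP, in which J-domain proteins bring the client and start hydrolysis while BAG and HSP110 proteins exchange the nucleotide. HSP90 acts later on clients such as kinases and steroid receptors, small heat shock proteins hold unfolded proteins without ATP, and TRiC folds actin and tubulin inside its ring. In neurons the same machinery also strips clathrin from recycled synaptic vesicles, through HSP70 with the J-domain protein auxilin.

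Male mice of the C57BL/6 strain, 8 to 12 weeks old in the stress study, carried RiboTag (RT), an HA-tagged form of the ribosomal protein Rpl22 that is made only where Cre is active, with D1-Cre (RT; D1-Cre) or D2-Cre (RT; D2-Cre). Each library pooled the NAc of 2 mice, and RNA was sequenced either after HA immunoprecipitation (IP) or from the whole homogenate (input). Groups were unstressed controls (Con) and mice that met a male CD1 aggressor in daily bouts of 10 min per the labels, over at most 10 days, of chronic social defeat stress (CSDS) and were then sorted by social interaction into susceptible (Sus) and resilient (Res). The methods of the study give a shorter daily bout and name the substrain C57BL/6J. There were 13 D1-IPs (4 Con, 4 Res and 5 Sus), 15 D2-IPs (5 of each), 9 D1-inputs and 9 D2-inputs (3 of each group), and 4 D1-IPs of unstressed mice with a floxed *Sirt1* (RT; Sirt1-floxed; D1-Cre), labelled Sirt1-KO.

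The 46 wild-type libraries held 18384265 to 31009626 counts on genes, and those labelled Sirt1-KO 22174187 to 31785984. The labelled cell types were checked against marker sums in CPM, the counts scaled to the library total after TMM adjustment: the D1-MSN list summed to 1101 to 1553 CPM in D1-IPs and 396 to 638 CPM in D2-IPs, and the D2-MSN list to 2061 to 3470 CPM and 5646 to 7998 CPM. In inputs these lists summed to 449 to 703 CPM and 776 to 1324 CPM, so every D1-IP was above every input for the D2-MSN list too. Astrocyte, oligodendrocyte and microglia lists were lower in every IP than in every input (astrocyte 37.9 to 95.8 against 791 to 1010 CPM). Sums of 4 markers of cortical excitatory neurons ranged from 381 to 1348 CPM in D1-IPs, 21.2 to 292 CPM in D2-IPs and 70.8 to 1065 CPM in inputs, and sums of 3 cholinergic interneuron markers from 4.71 to 21.7 CPM in D1-IPs and 51.6 to 111 CPM in D2-IPs. In RNA of pooled tissue, fewer cells of a type and less RNA per cell cannot be told apart.

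Promoter sequences are shown first for the members whose start regions carry a heat shock element and for the inducible HSP70 pair, whose levels differed between the neuron types. The element, the site of heat shock factors, was searched on both strands as 3 units in which GAA alternates with its complement TTC, starting with either, with any 2 bases between neighbouring units, 250 bases before to 50 after each start in the RefSeq table (GRCm38.p6, the assembly called mm10). Of the members, 71 had a window and 4 held the element: *Hspd1*, *Hspe1*, *Dnajb6* and *Hsph1*. It stood in 6 of the members' 91 windows (6.59%) and in 198 of all 32851 (0.603%). Windows can overlap: the sites of *Dnajb6* and *Hsph1* were each counted in 2 windows, and *Hspd1* and *Hspe1* share theirs. Counted by gene, it stood in 179 of all 27025 genes (0.662%), beside the 4 of 71 members. *Hspd1* and *Hspe1*, the subunits of the mitochondrial chaperonin and its lid, are read in opposite directions from starts 216 bases apart on chromosome 1 (with the inner of the RefSeq starts of *Hspd1*), and share a run of overlapping matches between them. Seen from the outer RefSeq start of *Hspd1* (55088243), which is also its GENCODE start, the run lies inside *Hspd1*. The GENCODE start of *Dnajb6* (29735688) lies before its site, which is thus inside the gene by that annotation. The capitals mark the matching bases.
Hspd1-Hspe1, chr1:55088053-55088082, plus strand: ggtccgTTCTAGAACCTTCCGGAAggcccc
Dnajb6, chr5:29735846-29735870, plus strand, upstream of both RefSeq starts: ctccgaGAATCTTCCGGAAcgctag
Hsph1, chr5:149636282-149636306, minus strand, just after both RefSeq starts: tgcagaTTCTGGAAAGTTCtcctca

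*Hspa1a* (chr17:34969190-34972156, minus strand) and *Hspa1b* (chr17:34956436-34959238, minus strand) are neighbouring, near-identical genes for the stress-inducible HSP70, so the split of reads between them is uncertain. Of the 250 bases before their starts, 247 were identical (98.8%), and the 3 that differ are in capitals. Neither window held the element as spelled above, which says only that these letters were not found in it.
Hspa1a, chr17:34972157-34972406, minus strand: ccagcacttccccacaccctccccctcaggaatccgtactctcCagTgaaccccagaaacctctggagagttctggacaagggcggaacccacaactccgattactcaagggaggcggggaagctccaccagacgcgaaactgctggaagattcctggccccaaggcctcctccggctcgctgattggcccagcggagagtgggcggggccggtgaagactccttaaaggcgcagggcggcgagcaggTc
Hspa1b, chr17:34959239-34959488, minus strand: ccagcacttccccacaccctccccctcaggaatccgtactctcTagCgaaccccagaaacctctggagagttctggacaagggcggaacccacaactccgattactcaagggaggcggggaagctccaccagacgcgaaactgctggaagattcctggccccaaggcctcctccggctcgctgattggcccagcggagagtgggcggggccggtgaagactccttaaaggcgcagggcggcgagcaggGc

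Counted over all members, chaperone transcripts took 1.43% ± 0.0878 (SD, n = 28) of the gene counts in IPs and 0.931% ± 0.0375 (SD, n = 18) in inputs. The IPs ranged from 1.27 to 1.56% and the inputs from 0.875 to 1.00%, so no IP overlapped an input. *Hspa8*, *Hsp90aa1* and *Hsp90ab1* together made up 41.2% of the members' counts in IPs and 34.6% in inputs. Per kb of exon, the highest mean levels in D1-IPs were *Hsp90ab1* with 861 ± 30.9 CPM per kb (SD, n = 13), *Hspa8* with 520 ± 53.0, *Hsp90aa1* with 455 ± 28.8, *Hsp90b1* with 130 ± 6.30 and *Hspa5* with 105 ± 6.42. The same 5 led in D2-IPs in the same order, from 802 ± 45.5 CPM per kb (SD, n = 15) for *Hsp90ab1* to 103 ± 9.09 for *Hspa5*. At the other end, 12 members had too few counts to be tested, among them 3 small heat shock proteins. The remaining 75 were tested in every comparison of wild-type libraries.

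The first comparison asked which transcripts are enriched on tagged ribosomes of MSNs over the whole tissue. In the D1 line 35 members were higher in IP than in input and 8 were lower (fold over 1.5 and adjusted p under 0.05, edgeR quasi-likelihood test with Benjamini-Hochberg adjustment), where 13.8% of all genes tested were higher and 29.3% lower. In the D2 line 28 were higher and 9 lower, against 12.8% and 30.8% of all genes. The median log2 fold change of the members was 0.49 in the D1 line and 0.41 in the D2 line, and that of all genes −0.04 and −0.08. Without the fold limit 67 members passed in the D1 line and 62 in the D2 line, where 81.9% and 82.7% of all genes did. Of the members, 42 had every D1-IP above every D1-input and 6 had every D1-IP below (23.9% and 24.4% of all genes), and in the D2 line 35 and 6 (21.9% and 22.3%).

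Among the cytosolic HSP70s, *Hspa8*, the constitutive member that also uncoats clathrin vesicles, ran from 1830 to 2601 CPM in D1-IPs (median 2233) and from 884 to 1092 CPM in D1-inputs (median 1016). It was higher in IP by 1.16 ± 0.05 (log2, SE) in the D1 line and by 0.95 ± 0.05 in the D2 line, where IPs lay between 1608 and 2153 CPM and inputs between 842 and 1050 CPM. No IP overlapped an input in either line. *Hspa1a* was higher in D1-IPs than in D1-inputs by 1.37 ± 0.15, with all D1-IPs (3.84 to 9.34 CPM) above all D1-inputs (1.13 to 3.74 CPM), and in the D2 line its log2 difference was 0.12 ± 0.14 (adjusted p = 0.439). *Hspa1b* was higher in IP by 1.12 ± 0.26 in the D1 line and lower by −0.73 ± 0.25 in the D2 line, with overlapping libraries in both. With the cortical marker sum as a covariate, an alternative chosen after seeing the data, the D2 value of *Hspa1b* was 0.04 ± 0.27 and the call was lost. *Hspa2* was 0.50 ± 0.06 higher in D1-IPs and 0.23 ± 0.06 in D2-IPs, below the fold limit in both.

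*Hspa5*, *Hspa9* and *Hspa12a* were higher in D1-IPs than in D1-inputs. *Hspa5*, the ER chaperone BiP, was at 407 to 492 CPM in D1-IPs and 192 to 217 CPM in D1-inputs, and its log2 difference was 1.14 ± 0.04 in both lines. *Hspa9*, the mitochondrial import HSP70, rose by 1.07 ± 0.03 in the D1 line and 1.00 ± 0.03 in the D2 line. *Hspa12a*, an atypical HSP70, was at 353 to 394 CPM in D1-IPs and 167 to 226 CPM in D1-inputs, a difference of 0.98 ± 0.04, with 0.55 ± 0.04 in the D2 line, under the fold limit but without overlap. Its relative *Hspa12b*, known from endothelium, went the other way, with 0.417 to 2.18 CPM in D1-IPs and 3.18 to 4.63 CPM in D1-inputs (−1.80 ± 0.17 in the D1 line and −1.43 ± 0.16 in the D2 line). The sum of 4 endothelial markers was 2.99 to 9.17 CPM in IPs and 56.9 to 82.1 CPM in inputs, and its part in the difference of *Hspa12b* was not tested.

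The nucleotide exchange factors of the HSP110 class split by member. *Hspa4* was higher in IP by 0.92 ± 0.03 in the D1 line and 0.80 ± 0.03 in the D2 line, and *Hsph1* by 0.81 ± 0.03 and 0.75 ± 0.03. *Hspa4l* stayed under the fold limit with 0.24 ± 0.05 and 0.12 ± 0.04. All 3 HSP90s were called in both lines. *Hsp90ab1*, the constitutive cytosolic form, was at 2417 to 2743 CPM in D1-IPs and 1169 to 1308 CPM in D1-inputs (1.08 ± 0.03), and *Hsp90aa1*, the inducible form, at 1603 to 1940 and 729 to 890 CPM (1.14 ± 0.04). In the D2 line their differences were 0.98 ± 0.03 and 0.86 ± 0.04, and the ER form *Hsp90b1* differed by 0.70 ± 0.04 and 0.67 ± 0.03. The mitochondrial *Hspd1* and *Hspe1*, which share the run of matches printed above, stayed under the fold limit: *Hspd1* differed by 0.42 ± 0.03 in both lines and *Hspe1* by 0.32 ± 0.07 and 0.25 ± 0.07.

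Of the 5 members with an Hspb symbol that were tested, 3 were called lower in IP in the D1 line and 4 in the D2 line, and 0 were called higher, where 29.3% and 30.8% of all genes were lower. *Hspb11*, placed in this class by its symbol alone, was called in neither line. *Hspb1* (HSP27) held 0 to 9 counts per library in D1-IPs (0 counts in 4 of 13), 6 to 32 in D2-IPs and 24 to 59 in inputs, and was lower by −4.39 ± 0.29 in the D1 line and −1.78 ± 0.22 in the D2 line. *Hspb8*, which works with Bag3 in selective autophagy, was at 1.68 to 4.66 CPM in D1-IPs and 4.28 to 10.6 CPM in D1-inputs (−1.76 ± 0.17, and −1.48 ± 0.16 in the D2 line). *Hspb6* was lower by −0.96 ± 0.13 and −1.01 ± 0.12. *Hspb3* was the only one called in a single line, with −2.73 ± 0.39 in the D2 line and 0.39 ± 0.32 in the D1 line (adjusted p = 0.262). The astrocyte, oligodendrocyte and microglia sums given above were lower in every IP in the same way, and their part in these differences was not tested.

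Of the J-domain proteins, the 4 of type A, the closest to the bacterial prototype, were higher in IP in both lines, from 0.70 to 0.82 in the D1 line and from 0.65 to 0.76 in the D2 line. *Dnaja1* was at 326 to 400 CPM in D1-IPs and 190 to 218 CPM in D1-inputs. Type B was mixed: of 10 tested, with 13.8% of all genes higher and 29.3% lower in the D1 line, 2 were higher in the D1 line (*Dnajb1*, the classical partner of inducible HSP70, by 0.63 ± 0.04, and *Dnajb6*, known for holding back aggregation, by 0.61 ± 0.04), none in the D2 line, and *Dnajb14* of the ER membrane was lower in both (−0.72 ± 0.11 and −0.73 ± 0.10). Differences of *Dnajb4* and *Dnajb5* were between 0.43 and 0.55, and *Dnajb2*, a neuronal form with ubiquitin-binding motifs, differed by −0.01 ± 0.04 and −0.08 ± 0.04.

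Type C, whose members share little beyond the J domain, had the widest spread among the J-domain classes, with 7 higher and 3 lower of 25 in the D1 line and 5 and 1 in the D2 line, against 13.8% and 29.3%, and 12.8% and 30.8%, of all genes. *Dnajc2*, which sits on ribosomes next to emerging chains, was at 60.2 to 73.5 CPM in D1-IPs and 31.6 to 39.9 CPM in D1-inputs (0.91 ± 0.05) and differed by 1.10 ± 0.05 in the D2 line. *Dnajc5*, the cysteine string protein of synaptic vesicles, was higher in D1-IPs by 0.59 ± 0.03 and in D2-IPs by 0.45 ± 0.03, the latter under the fold limit. *Dnajc6*, neuronal auxilin, showed 0.65 ± 0.05 and 0.30 ± 0.05. *Dnajc24*, which serves diphthamide synthesis, was lower in both lines (−0.79 ± 0.09 and −0.76 ± 0.08). *Dnajc1* of the ER membrane (−0.77 ± 0.07) and *Dnajc19* of the mitochondrial import motor (−0.61 ± 0.06) were called lower in the D1 line, with −0.46 ± 0.07 and −0.46 ± 0.06 in the D2 line. *Dnajc13*, an endosomal member, differed by −0.19 ± 0.05 and −0.05 ± 0.05.

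All 7 subunits of TRiC that were tested, *Cct2* to *Cct5*, *Cct6a*, *Cct7* and *Cct8*, were higher in IP in both lines, by 0.76 to 1.23 in the D1 line and 0.64 to 1.13 in the D2 line, with every IP above every input. *Cct7* led with 235 to 280 CPM in D1-IPs and 103 to 116 CPM in D1-inputs, and *Cct5* and *Cct8* differed by 0.93 ± 0.04 and 0.86 ± 0.03. *Tcp1*, another subunit of the ring, whose symbol is outside the rule, had 0.93 ± 0.03 and 0.94 ± 0.03. The BAG proteins diverged. *Bag5* was higher by 0.79 ± 0.04 in the D1 line and 1.18 ± 0.04 in the D2 line, and *Bag4* and *Bag6* by 0.60 to 0.75. *Bag1* stayed at 0.18 ± 0.04 and 0.07 ± 0.04, while *Bag2*, an inhibitor of the ubiquitin ligase CHIP, was lower in the D2 line (−0.89 ± 0.10) and at −0.27 ± 0.10 in the D1 line, and *Bag3* was at −0.42 ± 0.12 and −0.44 ± 0.12.

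**Figure D1:**
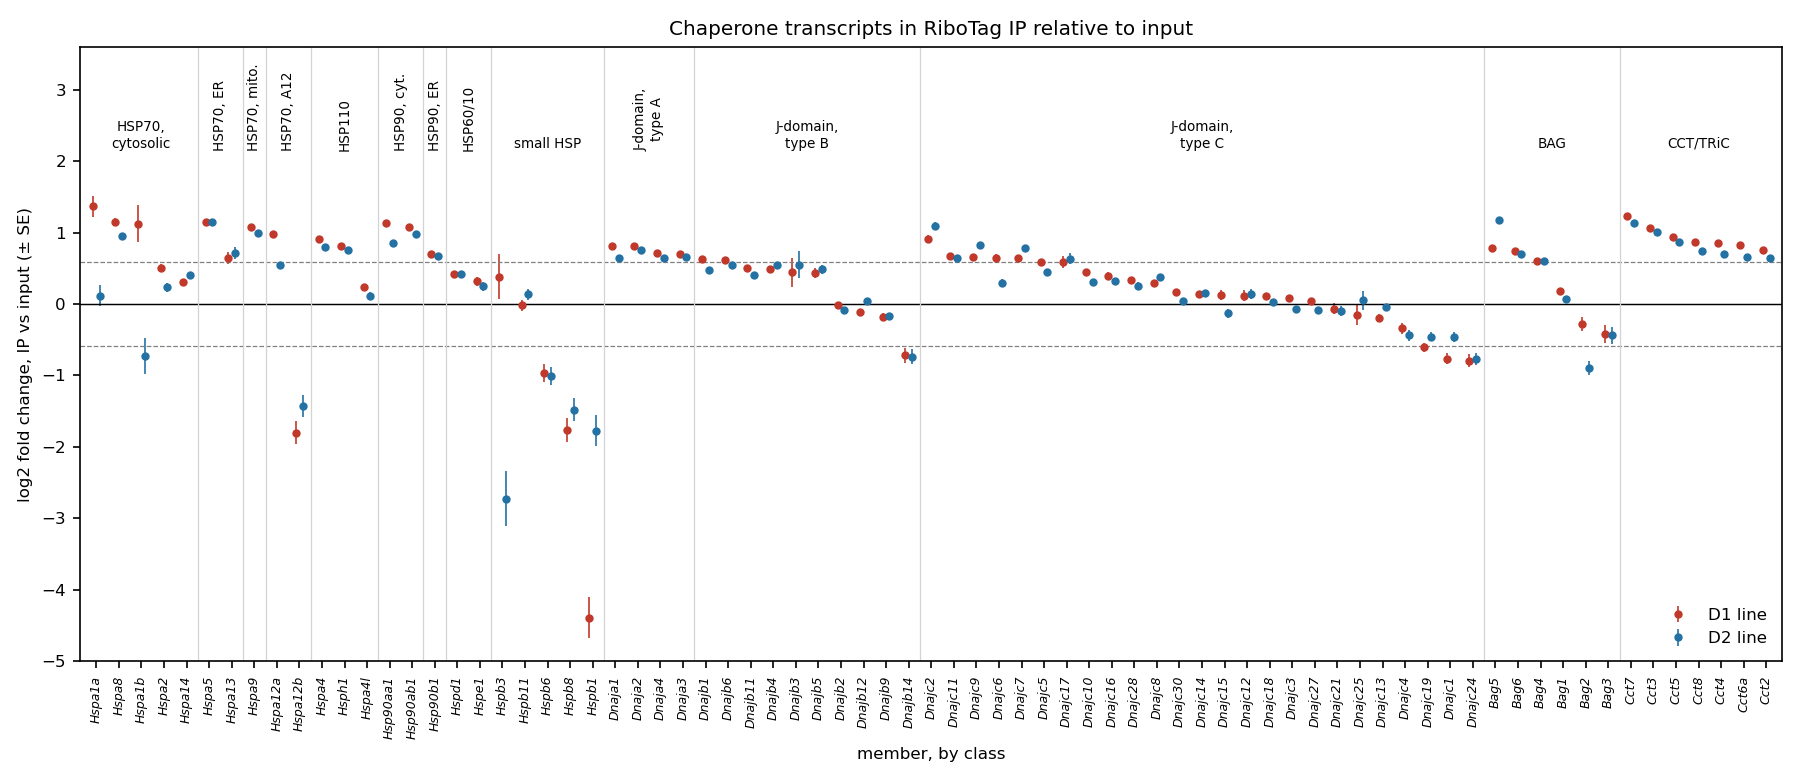
Log2 fold change of IP against input (± SE) for the 75 members tested, by class, in the D1 line (red) and the D2 line (blue); dashed lines mark a fold of 1.5. CCT, type A and HSP90 members lie above the upper line in both lines, *Hspb1*, *Hspb6* and *Hspb8* below the lower one, and *Hspa1b* and *Hspb3* lie apart between lines.

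A direct test of the line difference in enrichment (IP against input, D1 minus D2) called 25 members at an adjusted p under 0.05, 19 higher in the D1 line and 6 lower, against 13.7% and 11.8% of all genes. The largest were *Hspb3* (3.11 ± 0.51), *Hspa1b* (1.85 ± 0.36), *Hspa1a* (1.25 ± 0.20), *Bag2* (0.62 ± 0.14), *Hspa12a* (0.43 ± 0.06) and *Dnajc6* (0.34 ± 0.07). In the other direction stood *Hspb1* (−2.61 ± 0.38), *Bag5* (−0.39 ± 0.05), *Dnajc1* (−0.31 ± 0.10), *Dnajc2* (−0.18 ± 0.06), *Dnajc9* (−0.16 ± 0.06) and *Dnajc7* (−0.13 ± 0.05). The count depended on the libraries used: it was 4 with only the control libraries and 16 with the cortical covariate, and leaving out single libraries moved it between 15 and 25. With the covariate *Hspb3* (0.97 ± 0.54, adjusted p = 0.215) and *Hspa1b* (0.78 ± 0.37, adjusted p = 0.143) were no longer called in this test. The cortical sums of the IPs did not overlap between lines, so line and cortical RNA cannot be told apart there.

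Comparing the 2 neuron types directly, 3 members were over 1.5-fold higher in D1-IPs and 1 lower, where 4.94% of all genes were higher and 2.71% lower (adjusted p under 0.05). *Hspb3* (chr13:113662896-113663676, minus strand), a small heat shock protein known from muscle, had 12 to 45 counts per library in D1-IPs and 0 to 7 in D2-IPs, or 0.904 ± 0.323 CPM (SD, n = 13) and 0.107 ± 0.0858 CPM (SD, n = 15). Its difference was 3.05 ± 0.28, and no D1-IP overlapped a D2-IP. *Hspa1b* was at 4.97 ± 1.81 CPM in D1-IPs (2.18 to 8.90) and 1.73 ± 0.640 CPM in D2-IPs (0.531 to 2.71), a difference of 1.49 ± 0.19, and *Hspa1a* at 6.40 ± 1.43 CPM (3.84 to 9.34) and 3.52 ± 0.444 CPM (2.82 to 4.59), a difference of 0.84 ± 0.10. Both overlapped at the edge of their ranges.

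*Hspb1* (chr5:135887919-135889563, plus strand) was the member lower in D1-IPs, with 35 counts in all 13 libraries against 209 in 15 D2-IPs. Its levels were 0.106 ± 0.108 CPM and 0.552 ± 0.203 CPM, and the difference was −2.64 ± 0.33. Every D1-IP was below every input, where it was at 1.04 to 2.73 CPM, and D2-IPs reached 1.10 CPM. Between D1-inputs and D2-inputs 0 of the 75 members were called by edgeR and 0 by DESeq2, where 0.0266% of all genes were by edgeR, and 1 member (*Bag5*) had an unadjusted p under 0.05, against 4.82% of all genes.

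**Figure D2:**
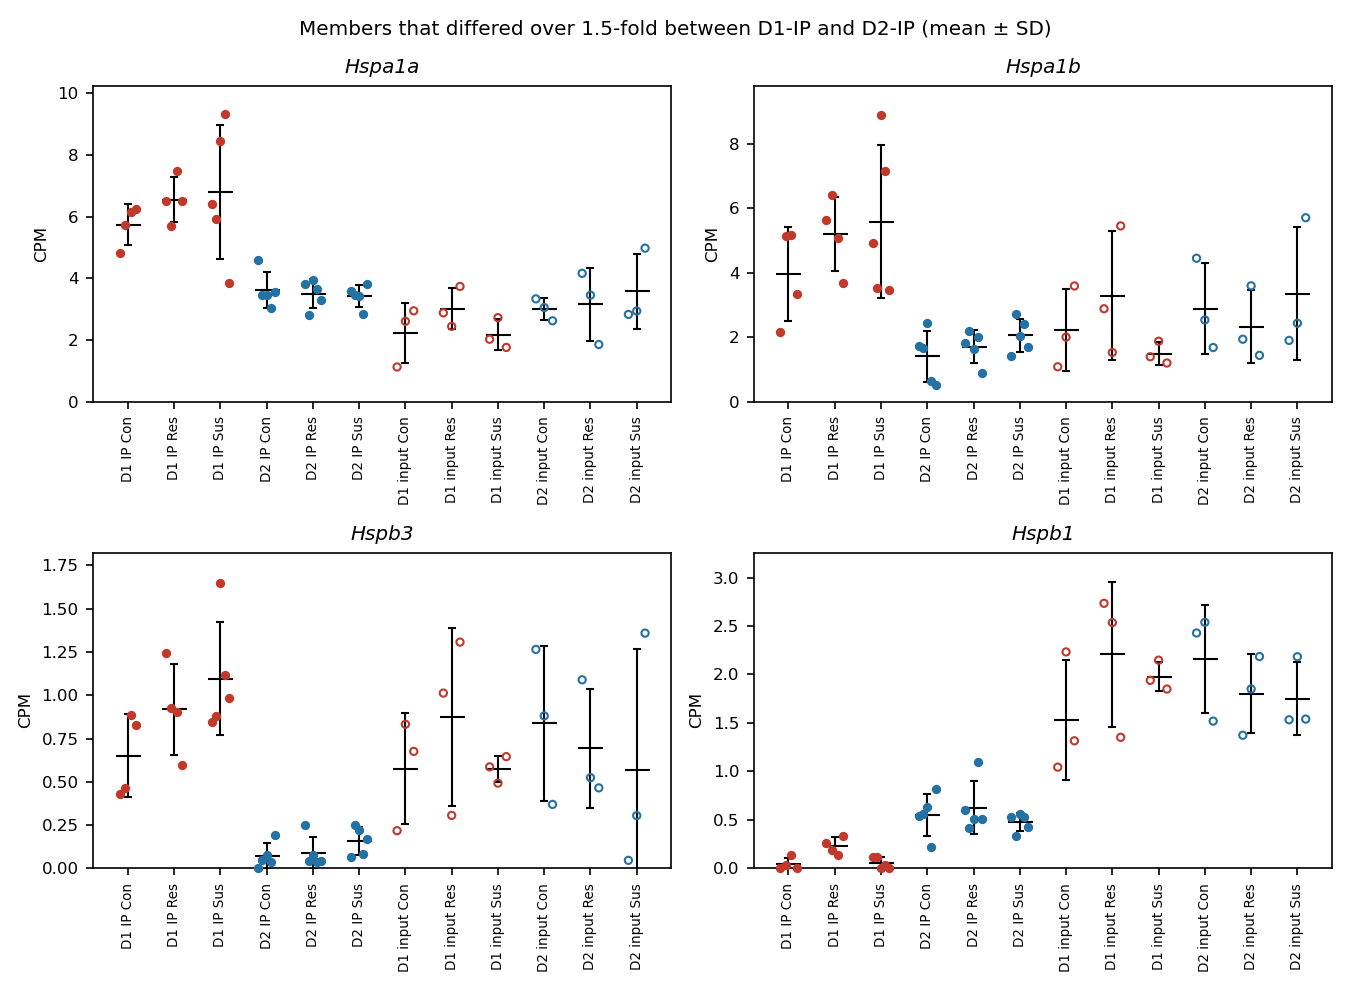
CPM per library (points), mean and SD (bars) of the 4 members that differed over 1.5-fold between D1-IPs and D2-IPs, by line, fraction and stress group; filled points are IPs and open points inputs. *Hspb3* D2-IPs stay at or below 0.250 CPM and D1-IPs at or above 0.428, and *Hspb1* is highest in inputs.

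Besides these 4 members, markers of other neurons differed between D1-IPs and D2-IPs. D1-IPs held more of the cortical excitatory sum than D2-IPs (381 to 1348 against 21.2 to 292 CPM), and D2-IPs more of the cholinergic sum (51.6 to 111 against 4.71 to 21.7 CPM). With the cortical sum as a covariate, edgeR gave a difference of 0.80 ± 0.18 for *Hspa1a* (adjusted p = 0.00214) and 1.84 ± 0.53 for *Hspb3* (adjusted p = 0.0135). For *Hspb1* it gave −2.31 ± 0.50 (adjusted p = 0.00126), and for *Hspa1b* 0.83 ± 0.32, which was not called (adjusted p = 0.0722). The cortical sums of D1-IPs and D2-IPs did not overlap, so line and cortical RNA cannot be told apart by this covariate. Within the inputs alone, where neuron type is not selected, *Hspb3* rose by 1.03 and *Hspa1b* by 0.57 (log2) per unit of the log2 cortical sum, and *Hspa1a* by 0.27 (adjusted p = 0.00022, 0.000619 and 0.038 by edgeR). *Hspa2*, which is not among the 4, rose by 0.14. At an adjusted p under 0.05, 16 of the 75 members varied with that sum in inputs, 6 rising and 10 falling, against 19.8% of all genes in either direction. The steepest fall was that of *Hspb8* (−0.32). *Hspb1* had a slope of −0.025 in inputs (adjusted p = 0.914 by edgeR). Within the IPs alone, none of the 4 reached an adjusted p under 0.05. There the slopes were 0.53 for *Hspb3* and 0.27 for *Hspa1b* (adjusted p = 0.1395 and 0.219 by edgeR). Those of *Hspa1a* and *Hspb1* were 0.016 and −0.136 (adjusted p = 0.967 and 0.801 by edgeR). The part of cholinergic RNA in the difference of *Hspb1* was not tested.

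**Figure D3:**
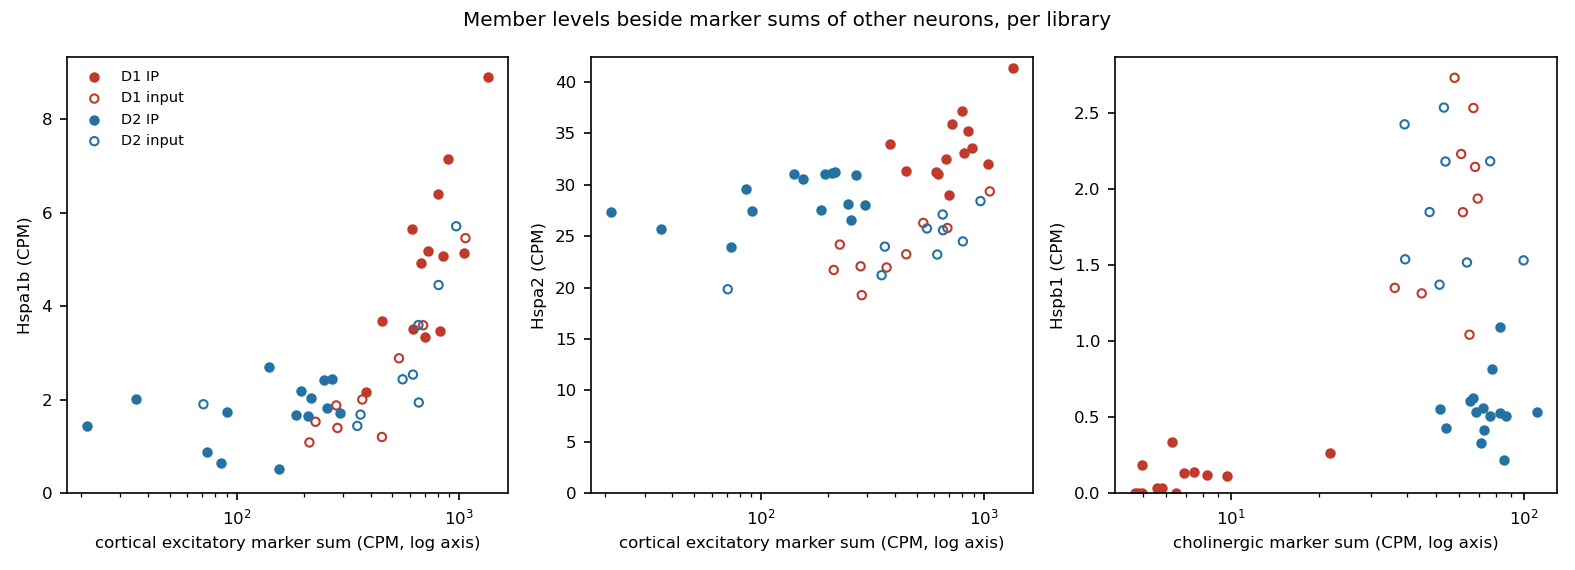
Levels of *Hspa1b*, *Hspa2* and *Hspb1* (CPM) in each of the 46 libraries against the summed CPM of cortical excitatory markers (left and middle) or cholinergic markers (right), on a log axis. Across D1-IPs, *Hspa1b* is lowest (2.18 CPM) in the library with the lowest cortical sum (381 CPM), and D1-IPs are set apart from the rest by their low cholinergic sums. Within the IPs alone, the slope of *Hspa1b* on the cortical sum was 0.27 (adjusted p = 0.219 by edgeR).

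Smaller differences were frequent. Without a limit on the fold, 23 members were higher in D1-IPs and 12 in D2-IPs, against 19.6% and 21.3% of all genes. *Hspa12a* was the other member without overlap, with 353 to 394 CPM in D1-IPs and 253 to 315 CPM in D2-IPs (0.35 ± 0.03). With *Hspb3*, 2 of the 75 members had every D1-IP above every D2-IP and 0 had every D1-IP below, against 2.02% and 0.801% of all genes. The partners in clathrin uncoating, *Dnajc6* (343 to 426 against 270 to 373 CPM) and *Hspa8* (1830 to 2601 against 1608 to 2153 CPM), were higher in D1-IPs by 0.28 ± 0.04 and 0.24 ± 0.04, with overlapping libraries. *Hsp90aa1* was higher by 0.27 ± 0.04, *Hsp90ab1* by 0.09 ± 0.03 and *Bag2* by 0.52 ± 0.09, while *Bag5* was lower by −0.27 ± 0.03 and *Dnajc1* by −0.30 ± 0.08. For *Hspa5*, *Hspa9*, *Hspd1* and *Hspe1* the differences were between −0.01 and 0.03, with adjusted p of 0.457 to 0.799.

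CSDS was compared within each neuron type at an unadjusted p under 0.05, the threshold of the study's methods. After adjustment over all genes, 0 members passed in any of these comparisons by edgeR, and 1 gene in all did (0.00703%, in D1-IPs of Res against Con). In D1-IPs of Sus against Con, 2 of the 75 members passed unadjusted, where 5.34% of all genes did. *Hspa8* (chr9:40800984-40810087) was at 2069, 2093, 2184 and 1830 CPM in Con and at 2433, 2384, 2193, 2233 and 2256 CPM in Sus. All Sus libraries were above all Con libraries (1.01% of all genes were), by 0.17 ± 0.08 (adjusted p = 0.846 by edgeR). *Bag5* (chr12:111709488-111713257), an exchange factor that binds HSP70, was at 98.8, 83.6, 86.2 and 83.6 CPM in Con and 81.1, 80.6, 72.8, 74.0 and 76.3 CPM in Sus. All Sus libraries were below all Con libraries (1.31% of all genes were), by −0.20 ± 0.06 (adjusted p = 0.846 by edgeR). *Bag5* passed whichever single library was left out, and *Hspa8* did not pass without Con replicate 1, 2 or 4 or Sus replicate 1, 2 or 5 (0.12 to 0.18).

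In Res against Con of the D1-IPs, 2 members passed (2.11% of all genes). *Hspa8* was at 2601, 2512, 2395 and 1905 CPM in Res, 3 of them above every Con library, with a difference of 0.20 ± 0.08 that did not pass without Con replicate 4 or Res replicate 1 or 2. *Hspb1* passed with 2.22 ± 0.73, on 0, 1, 4 and 0 counts in Con and 6, 4, 4 and 9 in Res, so that the level is at the floor of detection in Con. It passed the count filter of the IPs only through the D2-IPs. Between Sus and Res the D1-IPs differed in *Bag5* (−0.13 ± 0.06) and *Hspb1* (−1.97 ± 0.68, on 3, 3, 0, 1 and 0 counts in Sus), 2 members against 4.23% of all genes. *Hspa8* differed between Sus and Res by −0.04 ± 0.08.

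In D2-IPs of Sus against Con, 3 members passed against 3.68% of all genes. *Bag2* was at 2.44, 2.18, 2.56, 2.19 and 2.12 CPM in Con and 2.83, 3.63, 3.39, 2.37 and 2.70 CPM in Sus (0.38 ± 0.15), with 1 Sus library inside the range of Con, and did not pass without Sus replicate 2 or 3. *Bag5* was lower by −0.13 ± 0.06 and *Hspb6* higher by 0.55 ± 0.20, both with overlap. In Res against Con the 3 were *Bag3* (0.38 ± 0.17), *Dnajc12* (−0.19 ± 0.09) and *Hspa12b* (0.62 ± 0.30), against 3.02%, and in Sus against Res only *Dnajc25* (0.43 ± 0.19), against 1.66%.

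The effect of stress was also tested for a difference between neuron types. *Hspa8* was 1 of 75 members that passed for Sus against Con (0.23 ± 0.11 higher effect in D1-IPs), where 1.82% of all genes did. In D2-IPs it was at 1763 to 2153 CPM in Con and 1649 to 1996 CPM in Sus, a difference of −0.07 ± 0.07. For Res against Con, *Hspa8* (0.29 ± 0.11), *Hspb1* (2.01 ± 0.84), *Bag6* (0.15 ± 0.07) and *Hsph1* (0.14 ± 0.06) passed, against 2.36%. These tests share control libraries with those above. None passed after adjustment. The test of *Hspa8* for Sus did not pass without D1-IP Con replicate 4, D1-IP Sus replicate 1 or 2, D2-IP Con replicate 1, 3 or 5, or D2-IP Sus replicate 3 or 5, and that for Res passed whichever library was left out.

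**Figure D4:**
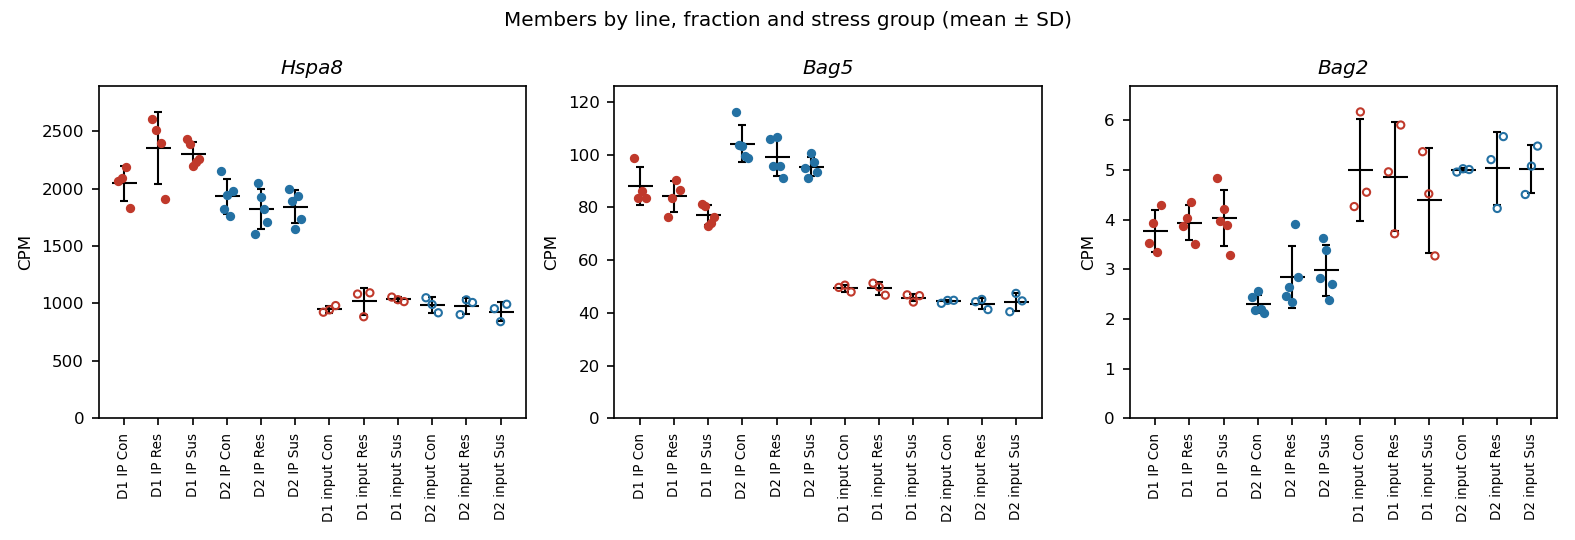
CPM per library (points), mean and SD (bars) of *Hspa8*, *Bag5* and *Bag2* by line, fraction (IPs filled, inputs open) and stress group. D1-IP Sus libraries lie above Con for *Hspa8* (2193 to 2433 against 1830 to 2184 CPM) and below it for *Bag5* (72.8 to 81.1 against 83.6 to 98.8 CPM).

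In inputs, with both lines in the model, *Dnajc24* passed for Sus against Con (0.24 ± 0.10, against 4.13% of all genes), *Hspb11* for Res against Con (0.25 ± 0.10, against 2.97%), and *Dnajb4* (0.12 ± 0.05) and *Dnajb9* (0.13 ± 0.05) for Sus against Res (4.86%). *Hspa8* differed between Sus and Con inputs by 0.02 ± 0.06 and *Bag5* by −0.05 ± 0.04. *Bag5* was at 47.9 to 50.5 CPM in D1-input Con and 44.1 to 46.8 CPM in D1-input Sus, and at 43.6 to 44.7 CPM in D2-input Con and 40.4 to 47.4 CPM in D2-input Sus, so that only the D1-inputs did not overlap. That is 3 libraries against 3, and the share of all genes that separate in the same way was not counted. The lines were not tested apart. The stress-inducible *Hspa1a* and *Hspa1b* passed in none of the stress comparisons. In D1-IPs of Sus against Con *Hspa1a* differed by 0.25 ± 0.17 and *Hspa1b* by 0.50 ± 0.32. *Hspa4l*, *Hspb11*, *Bag4*, *Dnajb9*, *Dnajc12* and *Dnajc25* were named after their values were seen.

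The 4 D1-IPs labelled Sirt1-KO were compared with the 4 D1-IP Con libraries, with CPM from that table. *Sirt1* itself, a NAD-dependent deacetylase, was at 13.1, 16.6, 14.8 and 14.4 CPM in Con and 15.2, 16.2, 13.2 and 10.2 CPM in the libraries labelled Sirt1-KO, so its total count gave no check of the label. The deleted exon and the purpose of the comparison are not given in the sources used here. Whether these 4 libraries were prepared together with the controls is not given either, so genotype and preparation cannot be told apart. Of 74 members, 0 were called at a fold over 1.5 and an adjusted p under 0.05 by edgeR, where 0.279% of all genes were higher and 0.47% lower. By DESeq2 1 was called, and the share of all genes is not given for that tool. At an unadjusted p under 0.05 by edgeR there were 12, against 17.3% of all genes. The members' median log2 difference was 0.02 and that of all genes 9.2e-05.

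*Hspa2* (chr12:76404176-76406938, plus strand), an HSP70 best known from male germ cells, was the member that passed the adjusted p without the fold limit. It was at 32.1, 30.3, 34.0 and 27.5 CPM in Con and 43.9, 46.5, 51.9 and 36.6 CPM in the libraries labelled Sirt1-KO, all above all Con libraries. The difference was 0.53 ± 0.10, or 1.45-fold (adjusted p = 0.0309 by edgeR, where 0.616% of all genes passed in this direction). *Hspb8* was at 1.59, 2.38, 2.19 and 2.55 CPM in Con and 1.19, 1.13, 0.667 and 1.26 CPM in the libraries labelled Sirt1-KO, again without overlap, a difference of −1.04 ± 0.25 (adjusted p = 0.0599 by edgeR). *Hspa1b* was at 2.06, 4.87, 4.90 and 3.19 CPM and at 7.96, 12.1, 14.2 and 3.72 CPM, a difference of 1.35 ± 0.37 (adjusted p = 0.0855 by edgeR), with the last library inside the range of Con. Of the members tested, 5 were higher and 3 lower without overlap, against 4.44% and 5.11% of all genes.

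These counts turned on replicate 5 of the libraries labelled Sirt1-KO. Without it 5 members passed both limits, where 2.8% of all genes did: *Hspa1a* (0.68 ± 0.16), *Hspa1b* (1.60 ± 0.27), *Hspa2* (0.61 ± 0.09), *Hspb3* (1.41 ± 0.36) and *Hspb8* (−1.13 ± 0.28), with adjusted p from 0.00420 to 0.0358 by edgeR. Of the 4, replicate 5 had the fewest counts on genes (22174187, others 28905618 to 31785984) and the lowest *Sirt1* (10.2 CPM). Its share of reads that named no gene was the largest (23.8%, others 19.2 to 21.6%). Replicate 5 also had the lowest cortical excitatory sum of the 4 (811 CPM, with 1205, 1422 and 1513 in the others), and the Con libraries lay at 360, 990, 681 and 664 CPM. Other marker sums did not overlap between the libraries labelled Sirt1-KO and Con: the D1-MSN list was at 896 to 1121 against 1192 to 1468 CPM, GABA interneuron markers at 139 to 166 against 101 to 133 CPM, cholinergic markers at 2.14 to 3.17 against 4.45 to 6.52 CPM and choroid plexus markers at 6.73 to 8.18 against 8.49 to 11.6 CPM. Within the GABA list *Pvalb* went the other way (2.00 to 3.58 against 4.25 to 6.03 CPM). Almost all of the choroid plexus sum was *Kl* (5.90 to 7.51 against 8.13 to 10.9 CPM). In the stress study the median of *Kl* was 11.4 CPM in D1-IPs and 7.49 CPM in inputs, so it need not mark choroid plexus here. The part of these sums in the differences of the members was not tested. With the cortical sum as a covariate the difference of *Hspa2* was 0.42 ± 0.14 (adjusted p = 0.248 by edgeR). Cortical RNA and genotype cannot be told apart for these members in 8 libraries.

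**Figure D5:**
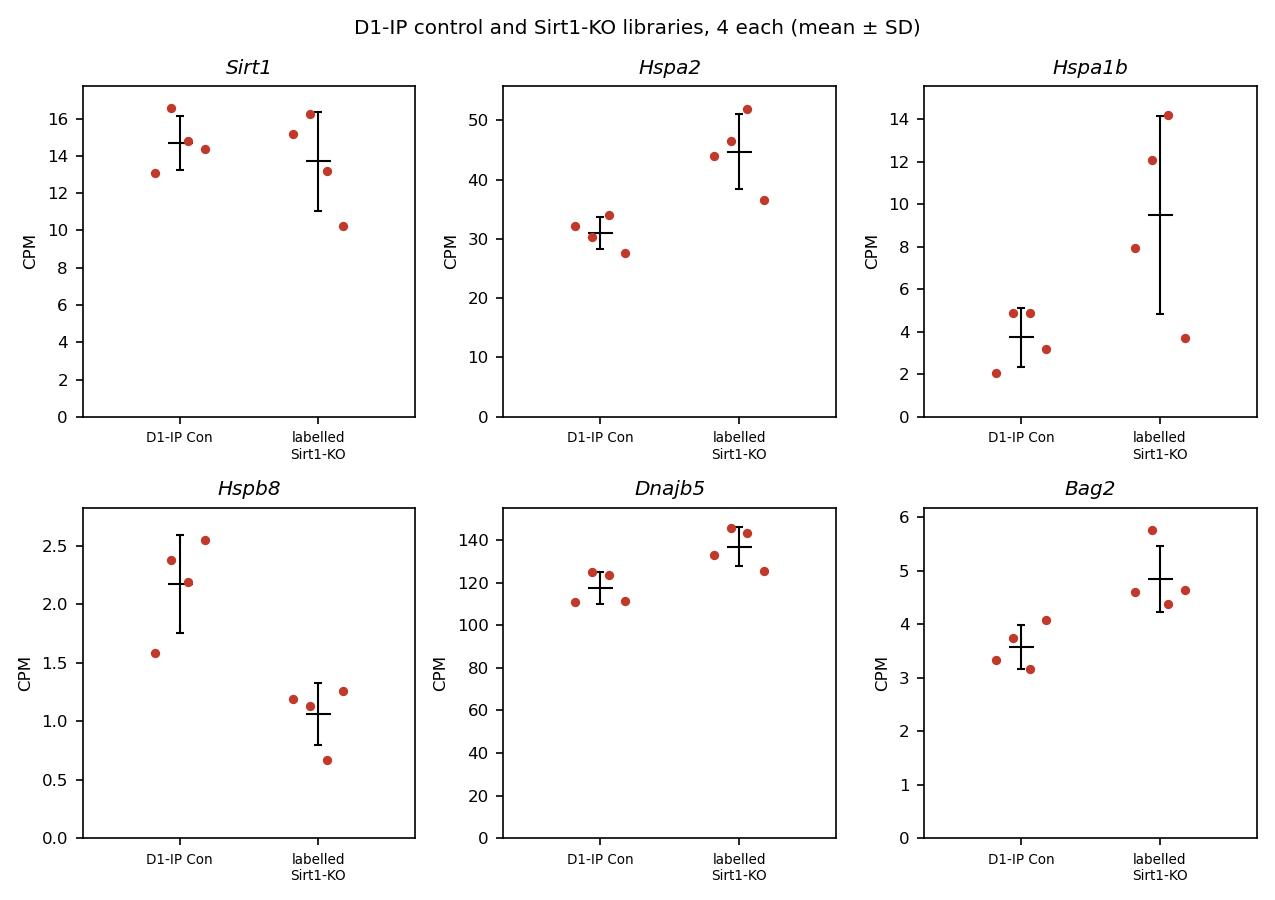
CPM per library (points), mean and SD (bars) of *Sirt1* and 5 members in the 4 D1-IP Con libraries and the 4 labelled Sirt1-KO. *Hspa2* and *Hspb8* do not overlap between groups, and *Hspa1b* of 1 labelled library (3.72 CPM) lies within the range of the Con libraries.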

How the data were processed

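RNA of the NAc was sequenced from polysomes of D1-MSNs and D2-MSNs (RiboTag IP) and from whole homogenate (input), with a stranded KAPA kit. The authors deposited raw counts of reads per gene symbol in 1 table for the stress study and 1 for the Sirt1-KO comparison, which repeats the D1-IP Con libraries with identical counts. The submitters' processing notes name cutadapt, FastQC, STAR, HTSeq, DESeq2, HOMER and the build mm10. Their versions and the strand setting of the counting are not given in the sources used here. Columns of 2 further D1-IPs without a sample in the labels were not used. The 5 entries that name no gene held 18.0 to 28.3% of the reads in IPs and 35.9 to 40.0% in inputs, and were left out.

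Counts were tested with the edgeR quasi-likelihood test (edgeR 4.0.16, limma 3.58.1, R 4.3.3) on TMM-scaled libraries, after filterByExpr (minimum count 10, minimum total 15), with 12 groups of IPs and inputs in 1 model, the IPs or the inputs alone for comparisons within them, and 8 libraries for Sirt1-KO. SE is the log2 fold change divided by the square root of F. P-values were adjusted by Benjamini-Hochberg over all genes tested. Calls needed a fold over 1.5 and an adjusted p under 0.05 (IP against input, D1 against D2, Sirt1-KO), an adjusted p under 0.05 (difference of enrichment), or an unadjusted p under 0.05 (stress), and all p-values measure the spread between pooled libraries. CPM are TMM-scaled. Alternatives were RLE factors, other count filters (among them a mean of 50 counts), DESeq2 1.42.0, blocks by mouse pool or replicate number, other sets of libraries, each library left out and, added after seeing the data, the cortical marker sum as a covariate. The fit was tested on simulated data. Tables and figures used Python 3.11.15, pandas 2.3.3, numpy 2.4.6 and matplotlib 3.10.9.

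The members, gene lists and tests were chosen with earlier results of these data known. Named were class representatives, up to 6 called members per direction and comparison without overlap between groups, and the 5 highest per kb. Positions and exon lengths are from GENCODE on GRCm38 and promoters from RefSeq on GRCm38.p6. *Hspa1a* and *Hspa1b* can share reads. Exons of 25 tested members overlap a gene on the opposite strand, by up to 44.1% of the exon length in *Dnaja4*, 19.0% in *Hspa1a*, 14.8% in *Bag4* and 12.5% in *Cct6a*, so their counts are uncertain where strand was not used.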

Additional observations from a re-analysis of the deposited data

Results flagged for a closer look

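In 45 named members, the library farthest from the others of its group was examined in 315 groups of 4 or 5 libraries. In 22 it stood apart by Dixon's criterion at the 95% level, which chance passes in about 1 of 20 groups. D2-IP Con replicate 1 was the highest of its group for *Hspa5* (523 CPM, others 414 to 437), *Cct5* (225, others 174 to 185), *Cct7* (287, others 234 to 246) and *Bag5* (116, others 98.6 to 103). D1-IP Con replicate 1 was highest for *Bag5* (98.8 CPM, others 83.6 to 86.2), and D1-IP Con replicate 4 lowest for *Dnajb1* (47.1, others 50.9 to 51.5) and *Dnajb6* (145, others 154 to 155). In D1-IP Res, replicate 4 was lowest for *Hsp90aa1* (1603 CPM, others 1907 to 1910) and *Dnajc6* (352, others from 389), and replicate 3 highest for *Hspa5* (476, others 437 to 444) and *Hspd1* (210 CPM, others 193 to 194). In D1-IP Sus, replicate 1 was lowest for *Bag1* (74.6 CPM, others 84.9 to 87.8), replicate 3, which had the highest cortical excitatory sum (1348 CPM), was highest for *Hspa2* (41.3, others 31.1 to 33.6), and replicate 5 highest for *Dnajb14* (23.5, others 15.9 to 17.8).

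In D2-IP Res, replicate 1 was highest for *Hspb3* (0.249 CPM, others 0.0343 to 0.0782), replicate 4 for *Hspb1* (1.10, others 0.414 to 0.605), and replicate 5 was lowest for *Dnajb1* (41.7, others 45.4 to 46.3) and highest for *Dnajb14* (21.9, others 15.3 to 16.7). In D2-IP Sus, replicate 1 was highest for *Hsp90b1* (560 CPM, others 484 to 497) and *Hspa12b* (2.13, others 1.15 to 1.37), and replicate 5 for *Dnajc13* (107, others 75.1 to 83.9). Replicate 4 of the libraries labelled Sirt1-KO was lowest for *Hspa5* (405 CPM, others 432 to 434).

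Effects that differed between the D1 and the D2 line were tested by interaction contrasts in edgeR. For IP against input 25 members differed at an adjusted p under 0.05, led by *Hspb3* (3.11), *Hspa1b* (1.85), *Hspa1a* (1.25), *Bag2* (0.62), *Hspa12a* (0.43) and *Dnajc6* (0.34) with the larger log2 enrichment in the D1 line, and by *Hspb1* (−2.61), *Bag5* (−0.39), *Dnajc1* (−0.31), *Dnajc2* (−0.18), *Dnajc9* (−0.16) and *Dnajc7* (−0.13) in the D2 line. For stress, at an unadjusted p under 0.05, the effect of Sus against Con differed in *Hspa8* (0.23), and that of Res against Con in *Hspb1* (2.01), *Hspa8* (0.29), *Bag6* (0.15) and *Hsph1* (0.14).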

How the results depend on the processing

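Counts of members called were recomputed under each alternative. For IP against input, 41 to 44 members were called in the D1 line and 37 to 41 in the D2 line when each library was left out, and without a limit on the fold 67 and 62. *Hspa1b* in the D2 line turned from lower to 0.038 with the cortical covariate. The count of members whose enrichment differed between lines was 16 with that covariate, 4 with only the control libraries and 15 to 25 with 1 library left out, at 15 or 16 without any 1 of 14 libraries (D1-IP Con 2, Res 1 and Sus 3, D2-IP Con 2 and 5, D1-input Con 1, Res 1, Res 2, Sus 1 and Sus 3, and D2-input Con 3, Res 2, Sus 1 and Sus 3). D1-IP against D2-IP kept a count of 4 with each library left out, and gave 2 with a mean of 50 counts as the filter, which drops *Hspb1* and *Hspb3*, and 35 without the fold limit. D1-input against D2-input gave 0 throughout.

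In the stress comparisons an adjusted p left 0 members in each of the 11. With 1 library left out, D1-IP Sus against Con gave 1 to 3 (1 without Con 2 or Sus 2), Res against Con 1 to 5 (1 without Con 4 or Res 1, 4 without Res 2, 5 without Res 4) and Sus against Res 1 to 3 (1 without Res 3, Sus 3, 4 or 5). D2-IP Sus against Con gave 1 to 5 (1 without Sus 2, 5 without Con 3), Res against Con 1 to 7 (1 without Con 4, Res 2 or Res 5, 5 without Con 2, 7 without Res 3) and Sus against Res 0 to 3 (0 without Res 2 or Sus 2, 2 without Res 1 or Sus 3, 3 without Res 4 or Res 5). The difference between D1-IPs and D2-IPs gave 0 to 2 for Sus (0 without the 8 libraries named beside *Hspa8* above, 2 without D1 Sus 5 or D2 Sus 1) and 1 to 6 for Res (1 without D1 Con 4, 2 without D1 Con 2, D2 Con 4, Con 5, Res 2 or Res 5, 6 without D1 Con 1). Inputs gave 0 to 6 for Sus against Con (0 without D2 Sus 1, 2 without D1 Con 1, Con 2, Sus 2 or Sus 3, 3 without D2 Con 3 or D2 Sus 2, 6 without D2 Sus 3), 0 to 4 for Res against Con (0 without D1 Con 2, D2 Con 2 or D2 Res 2, 2 without D1 Res 2, D2 Con 1, Con 3 or Res 1, 4 without D1 Con 1) and 1 to 6 for Sus against Res (1 without D1 Sus 1 or D2 Res 1, 4 without D1 Res 3 or D2 Res 3, 6 without D2 Sus 3). A mean of 50 counts gave 1 for D1-IP Res against Con and 1 for Sus against Res. All genes with a count gave 2 for the Res difference between neuron types and 2 for input Res against Con. Only the libraries compared gave 4 for D1-IP Sus against Con, 1 for D2-IP Res against Con, 0 for D2-IP Sus against Res and 2 for the Res difference. The covariate gave 2 for D2-IP Sus against Res and 2 for input Sus against Con.

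Same-numbered libraries did not all deviate together (r over 0.1 in 38 of 66 pairs among IPs, 14 of 45 among inputs, 9 of 18 between IP and input, and 1 of 3 with Sirt1-KO), and the labels do not say what a number shares across groups, so pairing was not assumed. IP and input of 1 number may come from 1 pool of mice, and with that pool as the replicate block 41, 36 and 21 members were called for IP against input in the D1 line, in the D2 line and for their difference. With the replicate number as the block the count was 6 for D2-IP Res against Con and 2 for input Sus against Con. For Sirt1-KO it was 4 (*Hspa1a*, *Hspa1b*, *Hspa2* and *Hspb3*), where 4.35% of all genes were called. Beside the other counts of this section the share of all genes is not given, so they show only how far the counts move. For Sirt1-KO all genes with a count gave 2, DESeq2 1, all 28 IPs in the model 2, no fold limit 1, and leaving out a library 0 to 5, with 5 without Sirt1-KO replicate 5. Causes of these shifts were not tested. Of the settings other than libraries left out, 100 kept the count within 1.5 times, 14 gave more and 20 fewer.

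Depth limits *Hspb1* and *Hspb3*, whose IP libraries held as few as 0 counts. Among the IPs, *Hspb1* passed the count filter only through the D2-IPs and *Hspb3* only through the D1-IPs.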

Other observations

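Beyond the members, partners of the same machinery were read from lists that were chosen with results known. Of all genes, 13.8% were higher and 29.3% lower in IP in the D1 line, 12.8% and 30.8% in the D2 line, and 4.94% and 2.71% in D1-IPs against D2-IPs, beside which the following counts stand. The list of heat-inducible members held 12 (*Hspa1a*, *Hspa1b*, *Hspa8*, *Hsp90aa1*, *Hspb1*, *Hsph1*, *Hspd1*, *Hspe1*, *Dnaja1*, *Dnajb1*, *Dnajb4* and *Bag3*). It includes *Hspa8*, called the constitutive cytosolic HSP70 above. Of these 12, 7 were higher and 1 lower in IP in the D1 line, and 4 and 2 in the D2 line. Between neuron types, 2 were higher and 1 lower in D1-IPs than in D2-IPs. Of 36 other chaperone genes, 35 were tested, and 11 were higher and 3 lower in IP in each line. *Stip1*, which links HSP70 to HSP90, was higher by 0.85 in the D1 line and 0.75 in the D2 line, the kinase adaptor *Cdc37* by 0.84 and 0.76, and *Ahsa1*, which speeds the ATPase of HSP90, by 0.83 and 0.73 (log2). The heat shock factors went opposite ways, with *Hsf1*, the master factor of the heat response, at −0.73 and −0.63 and *Hsf2* at 1.79 and 2.32. *Cryab*, a small heat shock protein of oligodendrocytes and muscle, was at −3.06 and −3.81. The glucocorticoid receptor partner *Fkbp5* was at 0.81 and 1.10, and lower in D1-IPs than in D2-IPs by −0.32.

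Of 16 genes of ER folding and the unfolded protein response, 6 were higher and 1 lower in the D1 line, and 5 and 1 in the D2 line. The protein disulfide isomerases *Pdia3*, *Pdia4* and *Pdia6* were between 0.62 and 0.79 in both lines and the lectin *Calr* at 0.69 and 0.67, while the sensor *Ern1* was at −1.40 and −1.29 and the effectors *Xbp1* and *Ddit3* between −0.12 and 0.12. Between D1-IPs and D2-IPs, *Cryab* (0.71) was called among the other chaperones and 0 of the ER genes by edgeR, and 0 genes of the 3 lists were called in the libraries labelled Sirt1-KO.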
